A study of Mus musculus with 14 samples.

Results

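The mouse hairpins mmu-mir-7a-1 and mmu-mir-7a-2, mmu-mir-128-1 and mmu-mir-128-2, mmu-mir-129-1 and mmu-mir-129-2, and mmu-mir-219a-1 and mmu-mir-219a-2, written below without the species prefix, are 8 of the 539 miRNA hairpins measured in exosomes of adipose tissue macrophages (ATMs). They were chosen by name, as the 2 genomic copies of each of 4 miRNAs best known from the nervous system, with the fold changes and mean expression of this comparison already known, so their values are given as a description. Exosomes are small vesicles that cells release, and ATMs, the macrophages of fat tissue, were taken here as CD11b+F4/80+ cells. Small RNA was sequenced from exosomes of obese ATMs (7 libraries) and of lean ATMs (7 libraries), all from C57BL/6 mice, after 72 h of culture in medium with 10% serum freed of exosomes. The labels name the obese and the lean state without the diet or the treatment behind it. Age labels start at 24 weeks throughout, and end between 26 and 32 weeks in the obese group and between 33 and 39 weeks in the lean group, stepping by sample, so age and group cannot be told apart if these labels hold. Nothing in the labels says whether libraries came from separate animals, and the p-values then measure only the spread between these libraries.

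A miRNA hairpin is cut to a duplex of about the length of a small interfering RNA, and a mature strand from its 5′ arm (5p) or its 3′ arm (3p) guides the silencing complex to messenger RNAs, mainly through the seed, bases 2 to 8. Several conserved miRNAs are encoded at more than 1 locus, and copies then give the same main mature strand from different hairpins and hosts. In the nervous system miR-7 is abundant in neuroendocrine cells and bound by the circular RNA Cdr1as, miR-128 is enriched in neurons, miR-129 is a brain-enriched miRNA, and miR-219 promotes the maturation of oligodendrocytes, the myelin-forming cells. None of these roles was measured here.

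The mature strands show what the copies of each miRNA share and where they part. They are taken from RefSeq (GRCm38.p6), where all 8 hairpins were found, and are written 5′ to 3′ with the seed in capitals.
miR-7a-5p (both copies): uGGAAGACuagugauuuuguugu
miR-7a-1-3p: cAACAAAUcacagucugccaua
miR-7a-2-3p: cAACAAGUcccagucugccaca
miR-128-3p (both copies): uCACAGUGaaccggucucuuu
miR-128-1-5p: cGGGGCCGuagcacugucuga
miR-128-2-5p: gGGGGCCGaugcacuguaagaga
miR-129-5p (both copies): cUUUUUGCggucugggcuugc
miR-129-2-3p: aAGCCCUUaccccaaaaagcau
miR-219a-5p (both copies): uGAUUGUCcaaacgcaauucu
miR-219a-1-3p: aGAGUUGCgucuggacgucccg
In each of the 4 miRNAs, 1 arm is identical letter for letter between the copies. The other arm of miR-7a differs within the seed, whereas the 5p arms of miR-128 keep 1 seed on different bodies. Among the other miRNAs of the RefSeq table, only Mir7b has an arm with any of these seeds, those of miR-7a-5p and miR-7a-2-3p, and it is not among the 539 rows analysed here.

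Outside the shared arm the hairpins differ. Those of miR-128 and miR-219a are given because they are the pairs whose values part most in opposite sign and in level, with the longest run common to both copies in capitals.
mir-128-1: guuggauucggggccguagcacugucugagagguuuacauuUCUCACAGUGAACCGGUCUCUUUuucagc
mir-128-2: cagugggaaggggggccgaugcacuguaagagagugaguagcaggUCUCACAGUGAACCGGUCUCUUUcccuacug
mir-219a-1: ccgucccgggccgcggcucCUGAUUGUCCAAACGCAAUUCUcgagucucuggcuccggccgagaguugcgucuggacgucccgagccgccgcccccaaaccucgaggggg
mir-219a-2: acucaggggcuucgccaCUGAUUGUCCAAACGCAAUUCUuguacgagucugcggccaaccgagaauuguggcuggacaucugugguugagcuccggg
The common run is 23 bases for miR-128 and 22 for miR-219a, hardly longer than the shared mature strand of 21 bases in either. It is 24 bases for miR-7a, whose shared strand has 23, and 26 bases for miR-129, whose shared strand has 21. Aligned end to end, the copies are identical at 68.8% of positions for miR-7a, 71.4% for miR-128, 68.1% for miR-129 and 63.2% for miR-219a. A read of the shared strand therefore matches both hairpins equally. For miR-7a, miR-128 and miR-219a, a full-length read of the other arm matches 1. The miR-129 hairpins also share most of their 3′ arm, so a read there can match both copies or nearly so. The sources used here do not say how the authors assigned reads that match both copies.

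The values analysed are those of 1 table of the authors' comparison. Each hairpin has a log2 fold change, a p-value and a mean log2 expression over all libraries, and no library has a value of its own. The group means, the spread within a group and the depth of each library are therefore unknown here. The table does not name the numerator of its fold changes, and positive means higher in obese ATM exosomes only if mir-155 is higher there, as published work on this material reported. In the authors' deposited table mir-155 stood at 4.41 with a limma adjusted p of 0.00205. Called means an adjusted p under 0.05 (limma, adjusted over all 539 hairpins), which held in the authors' deposited table for 30 hairpins or 5.57%, 11 of them positive (2.04%) and 19 negative (3.53%). The split was 8 positive and 25 negative after recentring by 0.34, the median log2 fold change over the 180 hairpins of highest mean expression.

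None of the 8 hairpins was called in the authors' deposited table by limma, beside 5.57% of all hairpins. At an unadjusted p under 0.05, 1 of the 8 passed, mir-128-2 on the positive side, beside 17.6% of all hairpins in either direction with 8.53% on the positive and 9.09% on the negative side. Of the 8, 6 had a negative and 2 a positive log2 fold change, with a median of −0.51 in the authors' deposited table, where all 539 had a median of 0.09. Neither sign nor median was tested over these hairpins.

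**Figure D1:**
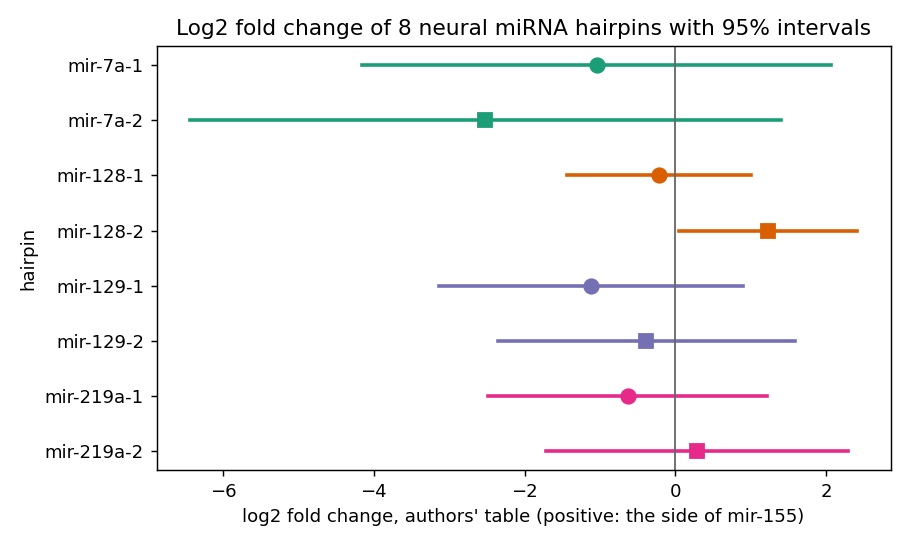
Log2 fold change of the 8 hairpins in the authors' deposited table (points; circles for copy 1, squares for copy 2) with 95% intervals from the deposited t (bars), positive on the side of mir-155. The interval of mir-128-2, from 0.05 to 2.41, is the 1 interval that lies wholly on one side of 0.

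The miR-128 hairpins were the most abundant of the 8. The authors' deposited table gives mir-128-1, which lies in an intron of R3hdm1 on chromosome 1 (plus strand, bases 128202361 to 128202430, GRCm38, GENCODE M21), a mean log2 expression of 8.43, rank 110 of 539. For mir-128-2, in an intron of Arpp21, a neuronal phosphoprotein gene, on chromosome 9 (minus strand, bases 112118636 to 112118711), the authors' deposited table has 7.19, rank 134. These are averages over obese and lean exosomes together, so a copy's level in either group cannot be read from them.

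The log2 fold change of mir-128-2 was 1.23 (2.34-fold; 95% interval 0.05 to 2.41) in the authors' deposited table, with an unadjusted p of 0.0427 and a limma adjusted p of 0.258. Its sister copy mir-128-1 was at −0.21 (95% interval −1.44 to 1.01) in the authors' deposited table, with a limma adjusted p of 0.918. The copies thus had opposite signs, 1.44 apart on the log2 scale, but their intervals overlap. Both were measured with a small error for their level. The standard error was 0.56 for mir-128-2 and 0.58 for mir-128-1, against medians of 0.84 and 0.73 over the 50 hairpins nearest in mean expression. A call at the error of mir-128-2 would have needed a log2 fold change of 1.99 (3.97-fold).

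The miR-7a hairpins had a lower level than those of miR-128 and a large error. The copy mir-7a-1 lies in an intron of Hnrnpk, a broadly expressed RNA-binding protein gene, on chromosome 13 (minus strand, bases 58392779 to 58392886), and is listed at a mean log2 expression of 5.87 by the authors' deposited table. The copy mir-7a-2 lies outside annotated genes on chromosome 7 (plus strand, bases 78888277 to 78888373), 7481 bases from Aen, and had 4.97 in the authors' deposited table. Both ranked in the upper part of the table, at 164 and 185 of 539.

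The authors' deposited table has the most negative log2 fold change of the 8 for mir-7a-2, at −2.52 (95% interval −6.44 to 1.40; limma adjusted p = 0.519). In the same authors' deposited table mir-7a-1 was at −1.05 (95% interval −4.16 to 2.07; limma adjusted p = 0.770). Each interval includes 0 and the value of the other copy. The standard error of mir-7a-2, 1.86, was larger than that of all 50 hairpins nearest in mean expression (median 0.96) and the eighth largest of all 539, while that of mir-7a-1, 1.48, was exceeded by 4 of its 50 (median 0.94). At such an error a call would have needed a log2 fold change of 6.58 for mir-7a-2 and 5.23 for mir-7a-1.

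**Figure D2:**
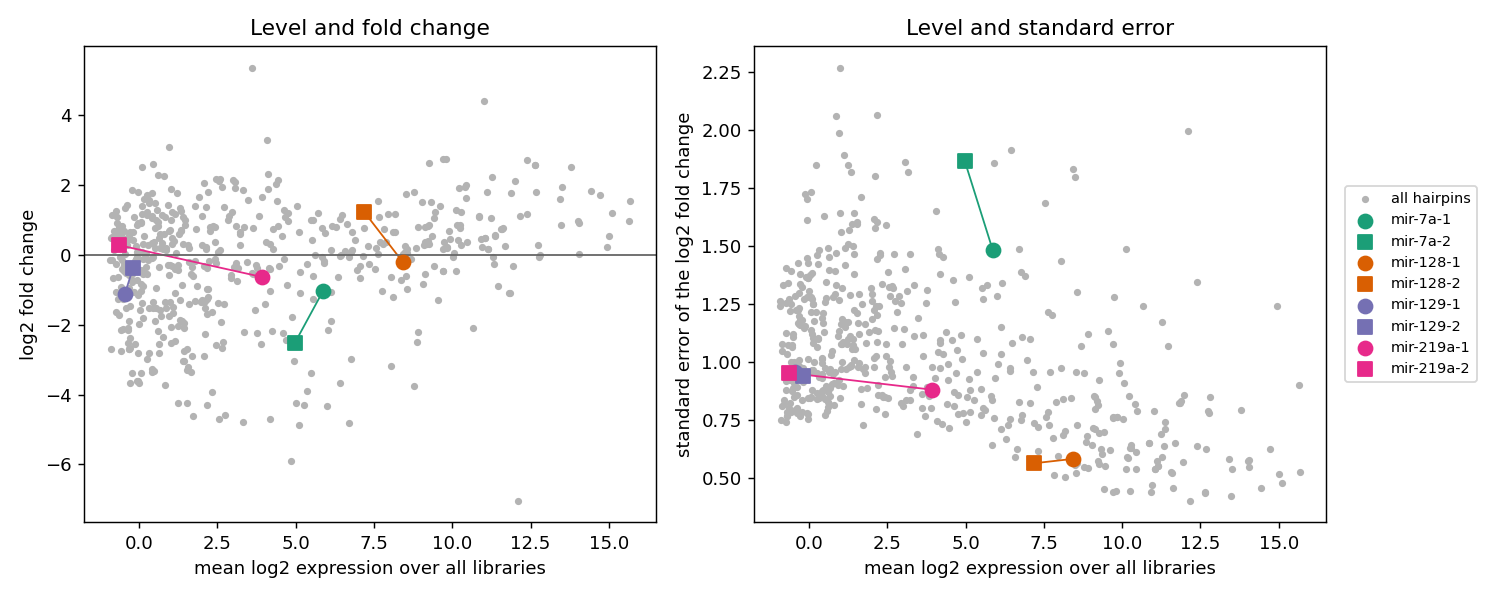
Mean log2 expression over all libraries (x) against the log2 fold change (left) and its standard error (right) for the 539 hairpins (grey) and the 8 neural ones (coloured, lines join the copies of 1 miRNA). The miR-7a copies lie above most hairpins of their level in standard error (1.48 and 1.86), the miR-128 copies below (0.58 and 0.56).

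Of the miR-219a hairpins, 1 was measured at a fair level and the other was close to the lowest values of the table. The authors' deposited table gives mir-219a-1, on chromosome 17 (minus strand, bases 34024983 to 34025092) overlapping an exon of the noncoding RNA Gm26940 and 303 bases from Ring1, a mean log2 expression of 3.94, rank 216. For mir-219a-2, on chromosome 2 (minus strand, bases 29845631 to 29845727), 629 bases from Urm1, the authors' deposited table has −0.65, rank 518, where the lowest of all rows is −0.92. The difference in level, 4.58 on the log2 scale (24.0-fold), was the largest of the 27 miRNAs with exactly 2 copies in the table, although miR-219a-5p is identical in both.

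For mir-219a-1 the authors' deposited table has a log2 fold change of −0.63 (95% interval −2.48 to 1.22; limma adjusted p = 0.760). For mir-219a-2 it was 0.28 in the authors' deposited table (95% interval −1.72 to 2.29; limma adjusted p = 0.929), a sign that turned to −0.06 after recentring by 0.34. The intervals of both copies include 0 and overlap. Each copy has another annotated hairpin on the opposite strand, mir-219c facing mir-219a-1 and Mir219b facing mir-219a-2, and the sources used here do not say whether counting was by strand. The authors' deposited table has mir-219c at 0.92 (limma adjusted p = 0.617) with a mean log2 expression of 0.05, and Mir219b is not among the 539 rows analysed here.

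The miR-129 hairpins were at the lower end for both copies. The copy mir-129-1, on chromosome 6 (plus strand, bases 29022619 to 29022691), lies in an exon of the noncoding RNA Gm3294 and has Lep, the leptin gene, as its nearest protein-coding gene at 37529 bases. The authors' deposited table gives it a mean log2 expression of −0.45, rank 496. The copy mir-129-2, on chromosome 2 (minus strand, bases 94241364 to 94241453) in an intron of Mir670hg and opposite Mir129b, had −0.20 in the authors' deposited table, rank 465.

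Negative log2 fold changes were given for both, −1.12 for mir-129-1 in the authors' deposited table (95% interval −3.13 to 0.89; limma adjusted p = 0.584). For mir-129-2 the authors' deposited table has −0.38 (95% interval −2.35 to 1.59; limma adjusted p = 0.910). At their errors a call would have needed 3.38 for mir-129-1 and 3.31 for mir-129-2 on the log2 scale. That is about as much as for mir-219a-2 (3.36). These are observed values needed for a call, and the power to detect a true difference was not computed.

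Relative to the recentring by 0.34, the log2 fold changes of the 8 were −1.39 for mir-7a-1, −2.86 for mir-7a-2, −0.55 for mir-128-1, 0.89 for mir-128-2, −1.46 for mir-129-1, −0.73 for mir-129-2, −0.97 for mir-219a-1 and −0.06 for mir-219a-2. With this scaling mir-128-2 alone kept a positive value. Its p, recomputed from the deposited standard error and the recovered degrees of freedom and not an output of limma, was 0.132 unadjusted and 0.443 adjusted over all 539 hairpins.

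The copies of these 4 miRNAs lay further apart than those of most other miRNAs with 2 copies. Exactly 2 numbered copies are listed for 27 miRNAs in the authors' deposited table, and the absolute difference in log2 fold change between copies had a median of 0.07 over the other 23, of which 13 differed by under 0.1. For the 4 it was 1.48 for miR-7a, 1.44 for miR-128, 0.91 for miR-219a and 0.73 for miR-129, the ranks 4 to 7 of 27. The largest differences were those of miR-365 (4.73), miR-29b (3.12) and miR-194 (2.20), and the smallest those of miR-16 (0.002), let-7a (0.003) and miR-181a (0.01). Copies had opposite signs in 4 of 27 miRNAs, which are miR-128, miR-219a, miR-194 and miR-365. These miRNAs were chosen with the results known, so the ranks describe them and were not tested.

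**Figure D3:**
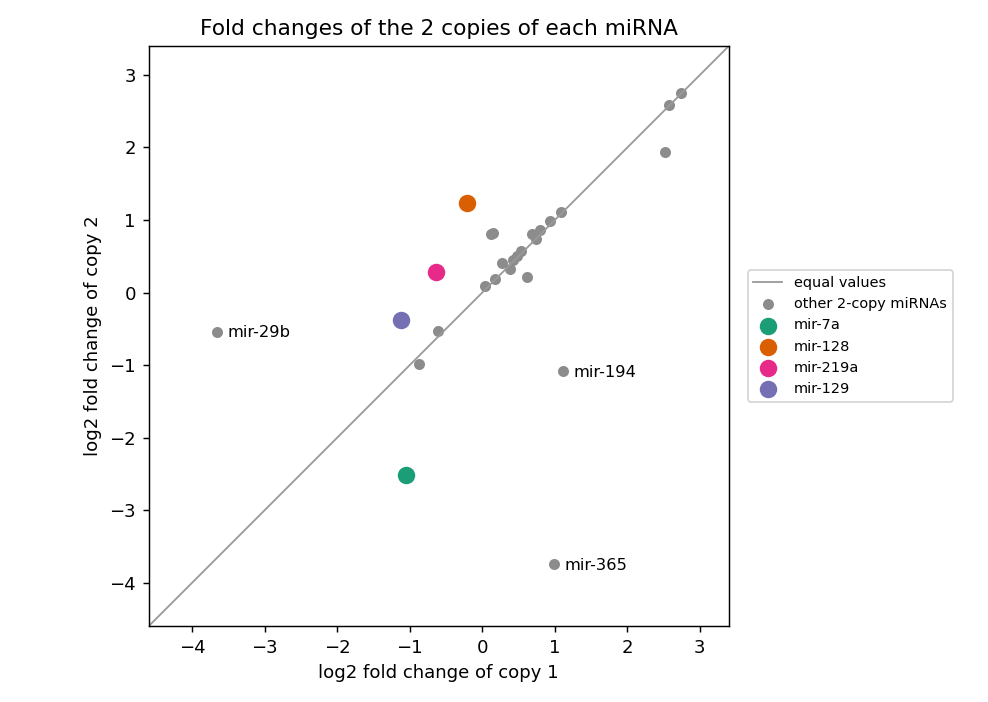
Log2 fold change of copy 1 (x) against copy 2 (y) in the authors' deposited table for the 27 miRNAs with exactly 2 copies, with the line of equal values. The other miRNAs lie mostly along the line, and the 4 neural ones lie off it by 0.73 to 1.48.

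No value per library is at hand, so the error of a difference between copies is not known exactly. It lies between the difference and the sum of the copies' standard errors, from 0.02 to 1.15 for miR-128, from 0.38 to 3.35 for miR-7a, from 0.07 to 1.83 for miR-219a and from 0.02 to 1.90 for miR-129. Divided by the largest error so allowed, the difference was 1.26 for miR-128, 0.50 for miR-219a, 0.44 for miR-7a and 0.39 for miR-129, all under the 2.10 that a 95% interval needs. Of the other 23 miRNAs, miR-365 alone exceeded it, at 2.61. Whether the copies of the 4 miRNAs differ beyond their error cannot be decided from this table.

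Most of the other miRNAs with 2 copies also share 1 arm. By a match of names to RefSeq, both arms are annotated for both copies, with 1 of them identical, in 15 of the other miRNAs. Of these 15, 11 differed by under 0.1 between copies. The longest run common to 2 copies was 22 to 26 bases in the 4. It was 22 to 69 bases in the 19 other miRNAs whose hairpins were matched by name for both copies. Split by level, 19 other miRNAs had a lower copy above the median mean log2 expression of 2.34, and their median difference was 0.05. The 4 at or below it had one of 0.12. These 4 are a poor measure for miR-129 and miR-219a. Among them miR-3084 and miR-7676 have copies with identical hairpins (100% of positions), which no read can tell apart. Their lowest copy, at 0.68 for miR-3084, also lies above mir-219a-2 (−0.65) and mir-129-1 (−0.45). Whether low level goes with the differences of these 2 miRNAs was not tested. In level, the authors' deposited table has the copies of miR-128 1.24 apart in mean log2 expression and those of miR-7a 0.89, with copy 1 the higher in each, and those of miR-129 were 0.26 apart with copy 2 the higher. The median over the other 23 was 0.08.

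The hairpins were also searched for sequence of other transcripts, by runs of 20 bases in GENCODE M21. Apart from miRNA genes, none was found for either copy of miR-7a or miR-128, or for mir-219a-2. The hairpin mir-219a-1 shares such a run with Gm26940, which overlaps it, and both miR-129 hairpins with Gm3294, which contains mir-129-1. Where the reads of these rows came from cannot be told from the table.

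Other miRNAs listed for the nervous system were mostly low in these exosomes and were not called. The 28 listed miRNA names were 23 neuron-enriched, 1 oligodendrocyte-enriched and 4 family relatives. Of the 28, 14 have a row, with 17 hairpins, of which mir-219c alone is a family relative. None of the 17 was called in the authors' deposited table by limma, positive or negative, beside 5.57% of all hairpins. At an unadjusted p under 0.05, 1 of the 17 passed, beside 17.6% of all hairpins. Their log2 fold changes were positive in 11 and negative in 6, against 284 and 255 over all hairpins, with a median of 0.67 against 0.09. Among the 15 neuron-enriched hairpins alone, 9 were positive and 6 negative, with a median of 0.25. The authors' deposited table puts the median mean log2 expression of the 17 at 0.86, against 2.34 for all hairpins. Their levels ranged from −0.10 to 8.56. Some lay above the median of all hairpins, among them mir-330 (8.56), mir-132 (6.64) and mir-338 (4.64). Those of smallest p were mir-708, at −2.23 (unadjusted p = 0.0224; limma adjusted p = 0.175), and mir-9-2, a copy of the neural progenitor miRNA miR-9, at 1.30 (limma adjusted p = 0.401), per the authors' deposited table. Next in the authors' deposited table came mir-338, an oligodendrocyte miRNA like miR-219, at 1.29 (limma adjusted p = 0.476) and mir-132, a miRNA induced by neuronal activity, at 0.90 (limma adjusted p = 0.480). They were followed in the authors' deposited table by mir-874 at 1.61 (limma adjusted p = 0.515) and mir-330 at −0.97 (limma adjusted p = 0.526).

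The markers listed for macrophages and leukocytes were present, and those listed for neurons were low or had no row. This contrast rests on which names were listed as markers. Among the other neural miRNAs above, mir-330 (8.56) and mir-132 (6.64) lay higher than the macrophage marker mir-511 (4.17). The median of those 17 hairpins was 0.86. Both copies of miR-128 and of miR-7a also lay above mir-511, and those of miR-129 and miR-219a below it. Of the miRNAs listed as neuron markers, miR-124 and miR-137 are not among the 539 rows analysed here. The other, miR-9, is also a miRNA of neural progenitors, as named above. Its 3 copies ranged in the authors' deposited table from 0.50 to 0.59 in mean log2 expression. All 7 miRNAs listed as macrophage and leukocyte markers had a row in the authors' deposited table. They ranged from 4.17 for mir-511 to 15.02 for mir-22, with mir-142a at 9.70 and mir-223 at 7.62. Whether these levels are particular to macrophages was not tested. In log2 fold change 5 of the 7 were positive and 2 negative. Of these, mir-155 was called positive and mir-511 negative, at −4.70 (limma adjusted p = 0.0148). The name neural refers only to where miR-7, miR-128, miR-129 and miR-219 are best known. Which cells these miRNAs came from was not tested.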

How the data were processed

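Exosomal small RNA of 14 libraries, 7 of obese and 7 of lean ATMs, was compared by the authors. Trimmomatic 0.30, Novoalign, limma, edgeR, MultiQC and FastQC appear in the submitters' processing notes without roles. The sources used here give no build, miRNA annotation, scaling or filter. Per the file headers, the deposited table holds log2 fold changes and mean log2 expression, t (a score), unadjusted and adjusted p-values, and B, a natural log of odds.

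The table has 0 columns per library, so no model was fitted and depth is unknown. Called hairpins have an adjusted p under 0.05. Dividing the fold change by t gave the standard error, and 95% intervals rest on the 17.9 degrees of freedom recovered from t and p (scipy 1.17.1). On simulated data, only the recovery of the degrees of freedom and the calls after recentring were checked. The simulated p-values were made from known degrees of freedom, so their recovery shows only that the code runs correctly. The standard errors and intervals were not tested in this way. Copies were paired by name and hairpins aligned with biopython 1.88. Alternatives were a looser threshold, a minimum fold, recentring, an expression minimum and 1 hairpin per stem.

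The members and lists were chosen with earlier results of these data known. The text names the 8 hairpins, the 6 neural miRNAs of smallest p, the 3 most and 3 least different pairs, hairpins sharing a seed, and mir-155. Further hairpins (mir-219c, mir-27a, mir-27b and the markers) were named after their values were seen or for the marker check.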

Additional observations from a re-analysis of the deposited data

How the results depend on the processing

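The 5 alternatives were an adjusted p under 0.1, a minimum of 2-fold, recentring by 0.34, the rows above the median mean log2 expression, and 1 hairpin per stem. Recentring by 0.09, the median of all hairpins, was added after seeing the data. Under each of these, 0 of the 8 hairpins and 0 of the 17 hairpins on the neural list were called. The smallest adjusted p among the 8 was 0.191, for mir-128-2 among the rows above the median, and its adjusted p ranged up to 0.443. The expression minimum kept 5 of the 8 and 1 hairpin per stem kept 4. Of 41 values of these hairpins under the alternatives, 40 kept their direction and their side of the threshold. Only the recentrings change a log2 fold change, so no direction could turn under the other alternatives. A minimum fold can only remove calls, so it could not add any here. The count of 40 is thus largely fixed in advance and is no measure of stability. The exception was mir-219a-2, whose log2 fold change became −0.057 after recentring by 0.34. Over all hairpins, 45 were called at an adjusted p under 0.1 (19 positive and 26 negative), against 30 at 0.05 (11 and 19). Recentring by 0.34 gave 33 calls (8 positive and 25 negative), the expression minimum 35 (16 and 19), 1 hairpin per stem 26 (9 and 17) and recentring by 0.09 gave 29 (10 and 19), while a minimum of 2-fold left 30. No paired analysis was possible because single libraries have no values in the file, and for the same reason none could be left out. Limits on what could be called come from the standard errors, which among the 8 were largest for the miR-7a rows, and counting error is unknown because no depth is given.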

Other observations

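The seed of miR-128-3p also occurs, shifted by 1 base, in miR-27a-3p and miR-27b-3p, abundant miRNAs of macrophages and fat. RefSeq (GRCm38.p6) gives these strands, with bases 2 to 8 in capitals.
miR-128-3p: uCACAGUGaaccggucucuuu
miR-27a-3p: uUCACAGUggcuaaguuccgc
miR-27b-3p: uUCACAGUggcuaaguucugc
The 7 letters CACAGUG start at base 2 of miR-128-3p and at base 3 of both miR-27 strands. In the authors' deposited table mir-27a was at a log2 fold change of 1.80 (limma adjusted p = 0.0740) with a mean log2 expression of 11.10. In the same authors' deposited table mir-27b was at 1.21 (limma adjusted p = 0.168) with 15.09. Neither was called, and both were more abundant than mir-128-1 (8.43) and mir-128-2 (7.19). These hairpins were picked for their sequence after their values were seen.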
